A study of Mus musculus with 21 samples.

Results

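The proteasome genes described here are the 50 rows of an RNA-seq expression table of 37620 genes whose symbol begins with Psma, Psmb, Psmc, Psmd, Psme, Psmf or Psmg followed by a number. Psmc3ip, a recombination cofactor with a similar symbol, and symbols that contain -ps, which mark pseudogenes, were left out. The 50 rows carry 48 symbols, because Psmb9 and Psmd14 each have 2 rows. The unit is FPKM, a fragment count scaled to transcript length and to the size of the library. The mean reached 0.1 FPKM in 49 of these rows, and 1, the second Psmd14 row (ENSMUSG00000090649), was at 0 in every library.

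The RNA came from germ cells enriched by collagenase and trypsin digestion from testes of C57BL/6J mice, an inbred strain, at 12 days post-partum, and the labels give the cell type as spermatocytes. The 12 libraries fall under 186wt, 343wt, 444wt or 456wt as sample number, each number has 3 of them, and there was no treatment or other genotype. The labels do not say whether a number is 1 animal or a pool, nor whether its 3 libraries came from separate RNA. The authors describe RNA from 4 replicates of germ cells, without linking them to the sample numbers, so the 3 libraries may repeat 1 RNA. Each test below therefore compares these 4 samples against the spread of their libraries, and its p-value does not measure the spread between animals. The genome-binding libraries were not used here.

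The proteasome is the protease of the cytosol and nucleus that degrades proteins tagged with ubiquitin. Its 20S core is a barrel of alpha rings, which form the gate, and beta rings, of which Psmb5, Psmb6 and Psmb7 carry the active sites, and the 19S cap holds an ATPase ring that unfolds substrates and non-ATPase subunits that bind and deubiquitinate them. Interferon-inducible paralogs replace the catalytic beta subunits in the immunoproteasome, Psmb11 does so in the thymic cortex, and Psma8 replaces Psma7 in meiotic and later male germ cells.

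The constitutive genes were abundant in all 4 samples, and the immune and thymus paralogs were low. Over the 20795 genes that reached 0.1 FPKM the upper quartile was 21.07 FPKM, and 39 of the 50 rows lay at or above it. Summed, the proteasome rows held 0.703% of all FPKM in 186wt, 0.761% in 343wt, 0.789% in 444wt and 0.793% in 456wt (0.762% ± 0.0415, SD, n = 4). The 31 constitutive genes of the 26S particle, which is the core with its cap, spanned a 6.52-fold range of mean FPKM, and 28 of them lay within a factor of 2 of their median, 97.4 FPKM. The lowest was Psma2, an alpha ring subunit, at 32.9 ± 1.76 FPKM, and the highest was Psmd2, the largest scaffold subunit of the cap together with Psmd1, at 214 ± 24.1 FPKM. FPKM is scaled by transcript length, so levels of different genes can be set side by side.

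**Figure D1:**
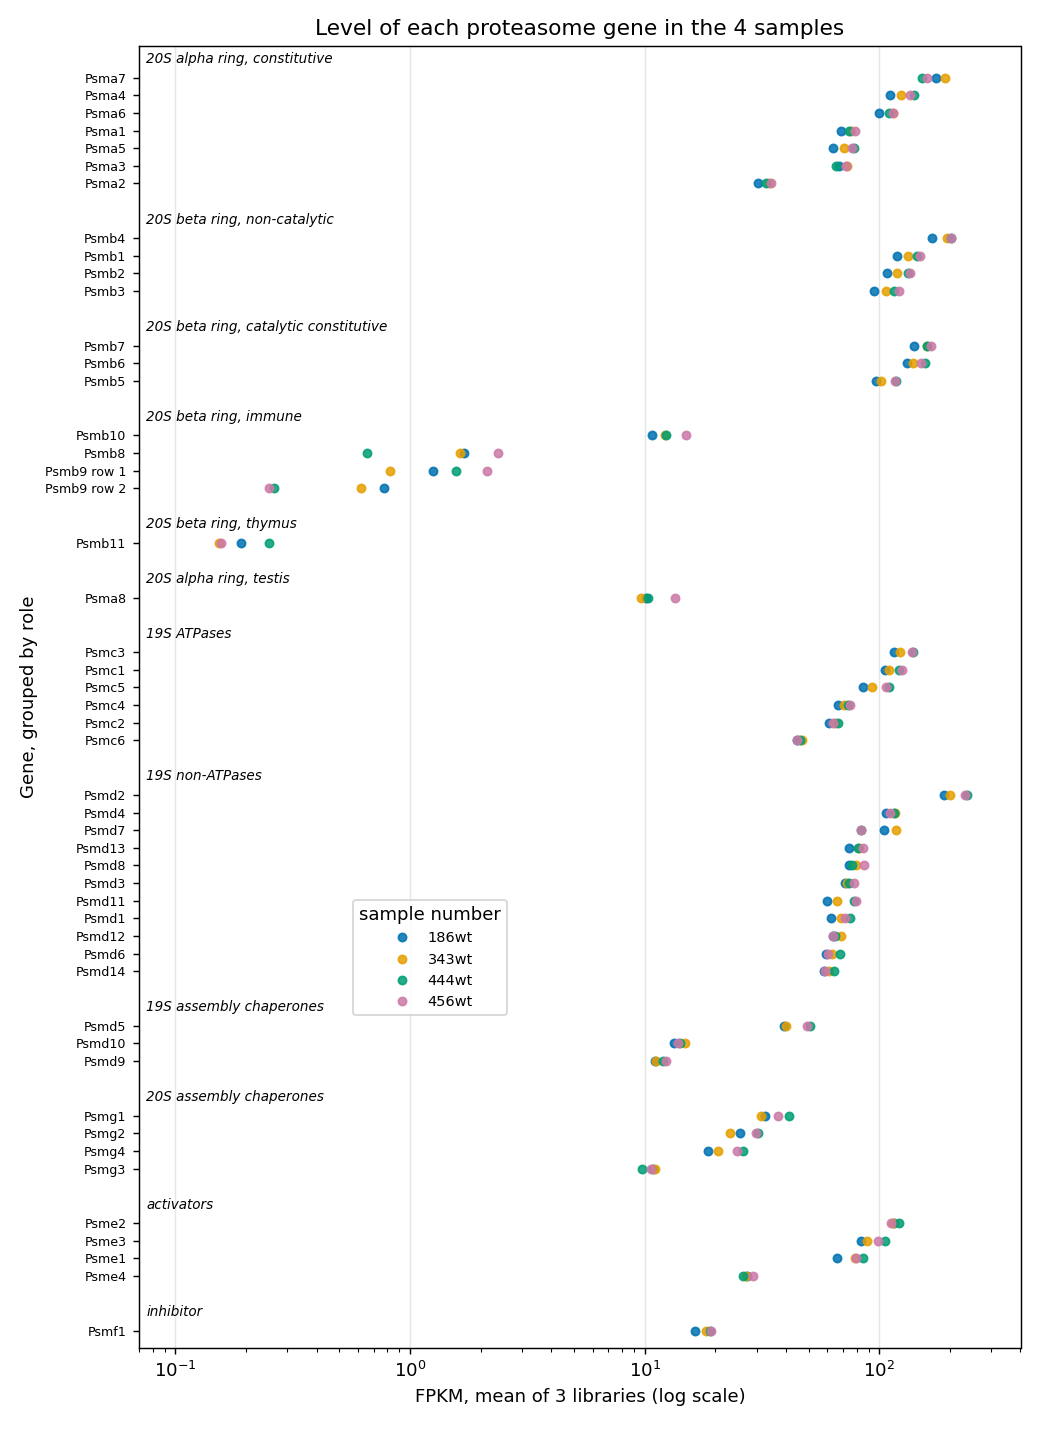
Level of each proteasome gene as FPKM on a log axis, grouped by role; each point is the mean of the 3 libraries of 1 sample number. The constitutive 26S genes lie between 30.5 and 238 FPKM, Psma8 and Psmb10 near 10 FPKM, and Psmb8, Psmb9 and Psmb11 below 2.5 FPKM.

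The short sequences upstream of the catalytic genes are shown first, because these pairs encode subunits that occupy the same position of the ring. Each run is the 150 bases before the annotated start, 5′ to 3′ on the gene's strand, from RefSeq (GRCm38.p6), a later build than that of the expression table. The RefSeq starts of Psmb8 and Psmb9 lie inside the gene spans of the table's annotation, so these runs can include transcribed bases of other models. Capitals mark matches to TGACNNNGC, the core of the antioxidant response element bound by the factors Nfe2l1 and Nfe2l2, or to TTCNNNGAA, the gamma-activated site of interferon-gamma responsive genes. Psmb5 is at chr14:54617996-54618145 (minus strand), Psmb8 at chr17:34198045-34198194 (plus), Psmb6 at chr11:70525207-70525356 (plus) and Psmb9 at chr17:34187331-34187480 (minus).
Psmb5: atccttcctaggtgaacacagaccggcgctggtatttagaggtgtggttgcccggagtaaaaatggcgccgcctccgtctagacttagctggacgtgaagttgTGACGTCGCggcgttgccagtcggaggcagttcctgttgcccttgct
Psmb8: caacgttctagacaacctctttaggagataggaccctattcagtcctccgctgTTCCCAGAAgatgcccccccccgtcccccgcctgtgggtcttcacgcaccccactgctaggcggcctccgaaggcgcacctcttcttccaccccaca
Psmb6: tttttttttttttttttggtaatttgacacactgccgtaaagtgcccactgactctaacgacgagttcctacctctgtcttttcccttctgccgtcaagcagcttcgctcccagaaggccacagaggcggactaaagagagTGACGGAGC
Psmb9: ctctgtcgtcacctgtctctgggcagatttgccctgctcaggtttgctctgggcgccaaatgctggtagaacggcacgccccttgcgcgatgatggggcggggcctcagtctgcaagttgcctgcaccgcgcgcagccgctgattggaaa

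The antioxidant motif began 47 bases before the start of Psmb5 and 9 bases before that of Psmb6, and its letters were absent from the Psmb8 and Psmb9 windows. The gamma-activated motif began 97 bases before the start of Psmb8, and its letters were absent from the windows of the other immune genes, Psmb9 and Psmb10. Promoter windows (250 bases before to 50 after the start) were found for 40 of the 48 symbols, in 43 windows. On both strands, TGACNNNGC occurred in 6 of the 43 windows (Psmb5, Psmb6, Psmc6, Psmd9, Psmd12 and Psme4), that is in 14.0%, against 12.4% of all 32851 windows. The interferon-stimulated motif, 2 copies of GAAA with 2 bases between them, occurred in 5 windows (11.6%, against 3.44% of all), those of Psmb3, Psmd4, Psmd9, Psme1 and Psmg4. The gamma-activated motif occurred in 3 windows (6.98%, against 8.30% of all), those of Psmb8, Psmd2 and Psmg1, and the CCAAT box in 14 (32.6%, against 37.4%). The 4 motifs were counted separately, and a match is a run of letters, not a measured binding site.

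Within the constitutive alpha ring, Psma7 was the highest gene and Psma2 the lowest. Psma7 (ENSMUSG00000027566, NCBI build 37, chr2:179771078-179777138) was at 174 FPKM in 186wt, 190 in 343wt, 153 in 444wt and 160 in 456wt. Psma2 was at 30.5, 33.8, 32.8 and 34.6 FPKM in the same order, so the alpha genes that meet in equal number in each ring differed 5.15-fold in mean FPKM. Psma3 shares sequence with the pseudogene Gm13835: in the most shared of the 9 annotated Psma3 transcripts, 586 of 760 stretches of 100 bases (77.1%) matched it with at most 1 mismatch, while the longest transcript has 2846 bases. Gm13835 was listed at 48.1 ± 3.39 FPKM beside 69.4 ± 3.55 for Psma3, and reads of the shared part could be divided between them.

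The beta ring genes were nearer to each other. Of the 4 non-catalytic genes, Psmb4 was highest (167, 194, 202 and 202 FPKM in 186wt, 343wt, 444wt and 456wt) and Psmb3 lowest (95.0, 107, 116 and 121 FPKM). The catalytic genes were Psmb5, with chymotrypsin-like activity, at 97.0, 102, 118 and 116 FPKM, Psmb6, with caspase-like activity, at 132, 139, 157 and 150 FPKM, and Psmb7, with trypsin-like activity, at 141, 160, 160 and 165 FPKM. In each of these 5 genes 186wt was the lowest sample.

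In the 19S cap the 6 ATPase genes ran from Psmc6 (44.5, 46.9, 45.8 and 44.6 FPKM) to Psmc3 (115, 122, 140 and 138 FPKM). Psmd2 led the 11 non-ATPase genes with 188, 200, 238 and 232 FPKM. The lowest of them was Psmd14, the deubiquitinase of the cap, whose expressed row was at 58.0, 61.1, 64.1 and 59.0 FPKM. Overlapping or copied sequence touches some cap genes as well: 306 of 677 stretches of 1 short Psmd1 transcript matched the overlapping gene Armc9 (13.9 FPKM), and 277 of 501 of 1 short Psmd11 transcript matched A730017L22Rik (4.20 FPKM). Psmd1 has 9 annotated transcripts of up to 3112 bases and Psmd11 has 16 of up to 2975 bases, so these shares do not cover the whole gene.

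The assembly chaperones, which build the particle and then leave it, had lower class medians than the constitutive subunits, although Psmd5 and Psmg1 lay above the subunit Psma2 in mean FPKM. Among those of the 20S core, Psmg1 was at 32.5, 31.2, 41.2 and 36.8 FPKM and Psmg3 at 10.9, 11.1, 9.75 and 10.6 FPKM. Of the cap chaperones, Psmd5 was at 39.1, 40.2, 50.7 and 49.4 FPKM and Psmd9 at 11.1, 11.2, 11.9 and 12.3 FPKM. Among the activators that open the gate, Psme2, a subunit of the PA28 alpha-beta ring, was highest at 116, 115, 121 and 112 FPKM. Psme4, the PA200 activator that recognises acetylated histones in germ cells, was lowest at 27.4, 26.9, 26.1 and 28.9 FPKM. Psme1, the interferon-inducible partner of Psme2, averaged 77.3 ± 8.07 FPKM and Psme3, the nuclear PA28 gamma, 94.2 ± 9.89 FPKM. The inhibitor Psmf1 was at 16.4, 18.2, 18.98 and 19.1 FPKM. The medians of the role classes thus lay at 75.3 ± 4.60 FPKM for the constitutive alpha genes, 130 ± 13.2 for the non-catalytic and 145 ± 11.2 for the catalytic beta genes, 85.3 ± 7.55 for the ATPases and 75.2 ± 3.82 for the non-ATPases (SD, n = 4 samples). They lay at 85.7 ± 8.69 FPKM for the activators, 24.9 ± 3.40 for the 20S chaperones, 14.1 ± 0.654 for the 19S chaperones and 1.97 ± 0.323 for the immune beta genes. The mean over members in place of the median gave 23.5 FPKM for the 19S chaperones and 5.36 FPKM for the immune beta genes.

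Psma8, the testis alpha subunit (ENSMUSG00000036743), was at 10.1 FPKM in 186wt, 9.65 in 343wt, 10.3 in 444wt and 13.5 in 456wt. The 3 libraries of 456wt (12.4 to 14.3 FPKM) lay above the 9 others, which ran from 9.06 to 11.8 FPKM. Against the mean of the other 3 samples 456wt was higher by 0.42 ± 0.08 on the log2(FPKM + 0.1) scale (SE, limma adjusted p = 0.00116). Without 456wt the other 3 samples spanned 0.09 on that scale and did not pass the test (limma adjusted p = 0.695). Psma8 stood at 6.51% of Psma7 on average, and the log2 ratio was -4.09 in 186wt, -4.29 in 343wt, -3.87 in 444wt and -3.56 in 456wt (mean -3.95 ± 0.31, SD, n = 4). Both genes moved in this ratio, since Psma7 was lower in 444wt and 456wt than in the other samples.

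Psmb10, the immune paralog of Psmb7 (ENSMUSG00000031897, chr8:108459628-108462292), was the most abundant of the immune genes, at 10.7, 12.2, 12.4 and 15.0 FPKM in 186wt, 343wt, 444wt and 456wt. Its libraries ran from 14.5 to 16.0 FPKM in 456wt and from 10.4 to 13.9 in the other samples, without overlap. The 456wt sample was higher than the mean of the other 3 by 0.35 ± 0.08 on the log2 scale (SE, limma adjusted p = 0.00447), and at 0.21 it missed the threshold once each library was centred on its median (limma adjusted p = 0.0566). Psmb10 stood at 8.0% of Psmb7.

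Psmb8, the immune paralog of Psmb5 (ENSMUSG00000024338, chr17:34334666-34338399), was at 1.70 FPKM in 186wt, 1.63 in 343wt, 0.653 in 444wt and 2.37 in 456wt. The 444wt libraries lay at 0.43, 0.69 and 0.84 FPKM, all below the 9 others, which ran from 1.47 to 2.55 FPKM. Against the mean of the other 3 samples, 444wt fell by 1.43 on the log2 scale (SE 0.15, limma adjusted p = 1.44e-05) and 456wt was higher by 0.90 (SE 0.15, limma adjusted p = 6.20e-04). Psmb5 exceeded Psmb8 by 49.1-fold in 456wt and 181-fold in 444wt. The estimated depth of 13.0 to 18.2 M fragments per library puts 3 fragments on this gene at 0.0864 to 0.121 FPKM, under the lowest library. That limit takes the longest annotated transcript and covers counting error only.

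Psmb9, the immune paralog of Psmb6, has 2 rows in the table (ENSMUSG00000024337, chr17:34318932-34324697, and ENSMUSG00000092299, chr17:34318933-34324709), and its full-length models share an identical run of 1339 bases. The share of the summed level that stood in the first row went from 1.83% to 98.0% between libraries, so neither row alone is a measure of the gene. The sum of both rows was 2.03 FPKM in 186wt, 1.44 in 343wt, 1.83 in 444wt and 2.39 in 456wt (1.92 ± 0.395, SD, n = 4). The sum differed between the samples (limma adjusted p = 0.0225), whereas the rows as deposited did not pass the test (limma adjusted p = 0.242 and 0.716). Psmb9 also overlaps Tap1, a peptide transporter gene on the opposite strand at 2.44 FPKM, and without a stated strand setting the reads of the overlap cannot be told apart.

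**Figure D2:**
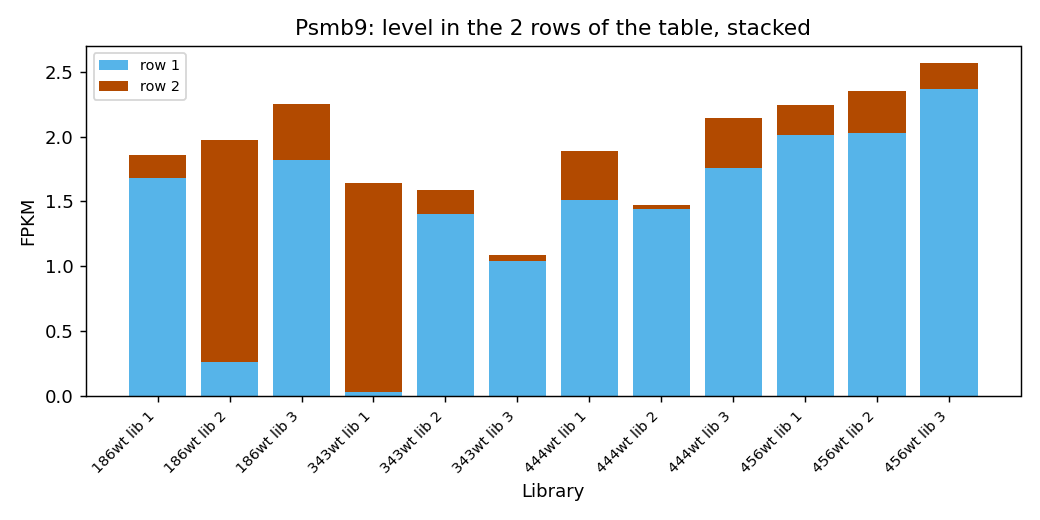
Psmb9 FPKM in each of the 12 libraries, with the 2 rows of the table stacked. The total stays between 1.09 and 2.57 FPKM while the first row holds 1.83% to 98.0% of it.

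Psmb11, the thymus paralog of Psmb5, was at 0.190, 0.153, 0.250 and 0.157 FPKM, and its libraries ran from 0.13 to 0.35 FPKM. The samples did not pass the test (limma adjusted p = 0.490), and its level was 0.173% of that of Psmb5. Taken on the full transcript of 4247 bases, 3 fragments correspond to 0.0388 to 0.0542 FPKM, and the gene was above that level in all 12 libraries. A shorter effective length would raise this level. The library with the fewest fragments held at most 8.66 of them.

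Each of the 5 variant genes was below its constitutive paralog in 4 of 4 samples. In the exact two-sided sign-flip test over 4 samples, 2 of the 16 sign patterns were as extreme for every pair, which is the smallest p this design allows, and adjustment over the 5 pairs did not change it. The mean log2 ratios were -3.64 ± 0.12 for Psmb10 to Psmb7, -3.95 ± 0.31 for Psma8 to Psma7, -6.12 ± 0.79 for Psmb8 to Psmb5, -6.18 ± 0.29 for Psmb9 to Psmb6 and -8.56 ± 0.21 for Psmb11 to Psmb5 (SD, n = 4). In this order Psmb10 and Psma8, and Psmb8 and Psmb9, differed in their ratios by less than the sum of the SDs.

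Whether the balance differed between samples was tested by an exact permutation test over all 15400 divisions of the 12 libraries into 4 sets of 3. The Psma8 to Psma7 ratio differed (exact p = 2.60e-04, adjusted over the 5 pairs 0.00114), with 456wt highest and 343wt lowest. The Psmb8 to Psmb5 ratio differed as well (exact p = 4.55e-04, adjusted 0.00114), from -7.29 in 444wt to -5.56 in 456wt. The Psmb9 to Psmb6 ratio passed narrowly (exact p = 0.0260, adjusted 0.0434), and it did not pass without 186wt (adjusted p = 0.0893) or without 456wt (adjusted p = 0.149). The ratios of Psmb10 to Psmb7 (exact p = 0.106, adjusted 0.133) and of Psmb11 to Psmb5 (exact p = 0.159, adjusted 0.159) did not pass. The tested ratios are taken within a library, after 0.1 FPKM is added to each level. Apart from this addition, which weighs most on low genes such as Psmb11, they do not depend on how libraries are scaled to each other. The values of -7.29 and -5.56 are log2 ratios of the mean FPKM of a sample.

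**Figure D3:**
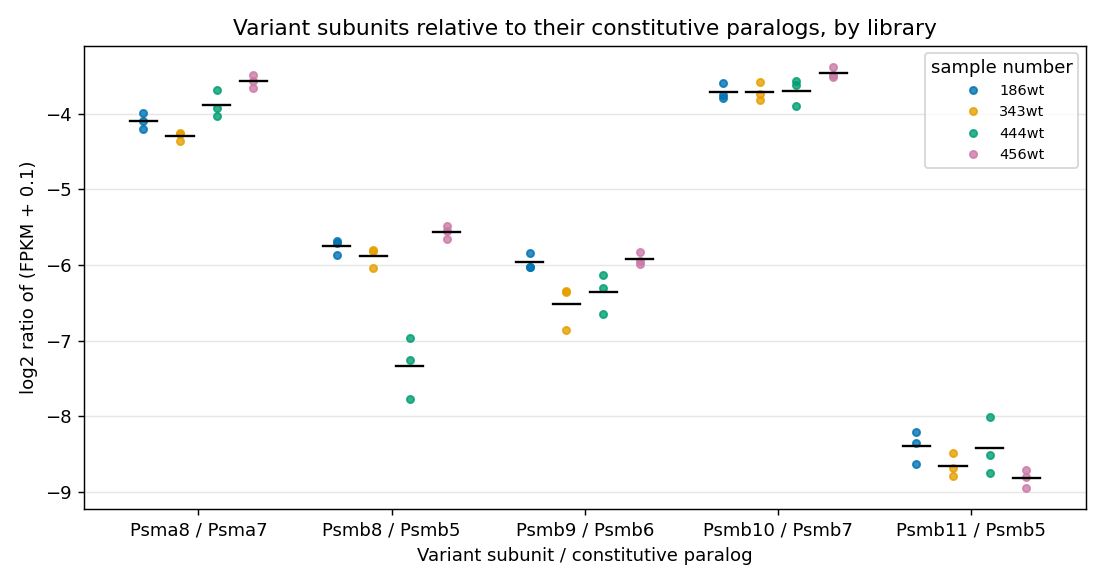
log2 ratio of each variant subunit to its constitutive paralog in each library (points) with the mean of each sample number (bars). Psmb8 to Psmb5 is lowest in 444wt, and Psma8 to Psma7 is highest in 456wt. As log2 ratios of mean FPKM, which can differ slightly from the bars, the former was -7.29 against -5.88 to -5.56 in the other samples. The latter was -3.56.

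Marker lists of other cell types shared their lowest or highest sample with some of these genes. The summed markers of macrophages (7 genes) were 11.7 FPKM in 186wt, 27.5 in 343wt, 6.62 in 444wt and 22.1 in 456wt. Those of endothelial cells (5 genes) were 18.6, 23.1, 15.8 and 34.7 FPKM, those of Leydig cells (5 genes) 55.0, 107, 15.8 and 59.9 FPKM, and those of lymphocytes (5 genes) 1.29, 0.937, 0.680 and 1.03 FPKM. All 4 lists, like Psmb8, were lowest in 444wt. There, 6 of 7 macrophage, 5 of 5 endothelial, 5 of 5 Leydig and 1 of 3 tested lymphocyte genes were called lower. Of all genes tested, 17.8% were called lower in 444wt. The order of the other samples differed between lists. Psmb8 and the endothelial list were highest in 456wt, the macrophage and Leydig lists in 343wt, and the lymphocyte list in 186wt. No gene of these lists was at 0 in all libraries. The markers of pachytene and later germ cells (8 genes) summed to 16.0, 17.0, 9.40 and 30.1 FPKM. Like Psma8, they were highest in 456wt, where 4 of 6 tested genes were called higher, beside 22.9% of all genes tested. In 444wt, 4 of these 6 genes were called lower and 2, Prm1 and Tnp1, higher, beside 17.8% and 26.5% of all genes tested. The endothelial and peritubular myoid lists were also highest in 456wt, with 5 of 5 genes called higher in each (22.9% of all genes). The Sertoli and pachytene lists were also lowest in 444wt, while Psma8 was lowest in 343wt. The 13 meiotic prophase markers summed to 576, 453, 752 and 548 FPKM and were highest in 444wt. The part of these cell types in the Psmb8 and Psma8 values was not tested. In RNA of mixed cells, fewer cells of a type and less RNA per cell cannot be told apart.

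**Figure D4:**
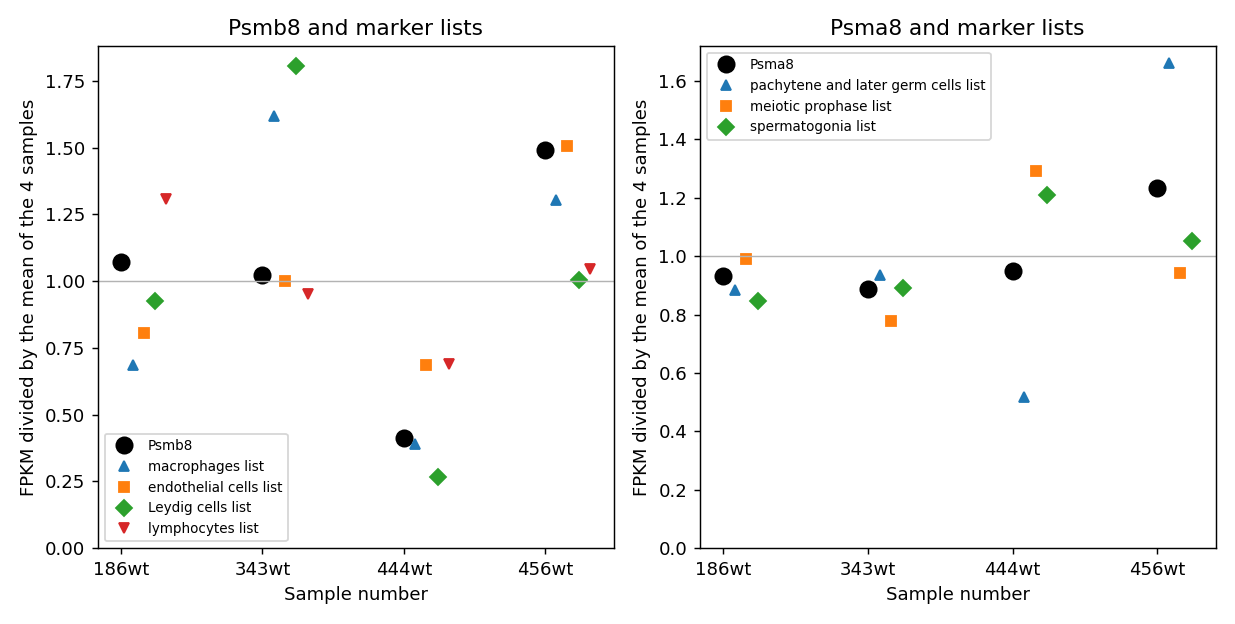
Psmb8 (left) and Psma8 (right) with summed marker lists, each as FPKM divided by its mean over the 4 sample numbers. Psmb8 and the 4 lists beside it are lowest in 444wt, and Psma8 and the pachytene list are highest in 456wt. The pachytene list and the Sertoli list, which is not drawn, are also lowest in 444wt. The endothelial list and the peritubular myoid list, which is not drawn, are also highest in 456wt.

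Levels were then compared between the 4 samples over the whole table with limma on log2(FPKM + 0.1). Of the 49 proteasome rows tested, 39 differed between the samples at an adjusted p under 0.05, where 58.2% of all 20795 genes tested did. Abundant genes were called more often: above a floor of 1 FPKM on the mean 77.6% were called, and 39 of 47 proteasome rows. The differences were small. The range between the highest and the lowest sample had a median of 0.27 on the log2 scale over the proteasome rows and 0.55 over all genes tested. The latter includes genes down to 0.1 FPKM, so the medians do not compare genes of like level. The rows that did not pass were both of Psmb9, and Psmb11, Psmc6, Psmd9, Psmd10, Psmd14, Psme2, Psme4 and Psmg3. With each library centred on its median 44 rows differed, among them Psme2 (limma adjusted p = 0.0308), Psme4 (0.0125) and Psmc6 (3.40e-04).

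The 186wt sample was low for most of the complex. Against the mean of the other 3 samples, 33 rows were lower in 186wt (21.9% of all genes were) and 2 were higher (14.8% of all genes), with a median of -0.15 over the rows and -0.05 over all genes. In 444wt 23 rows were higher (26.5% of all genes) and 5 lower (17.8%), with medians of 0.09 and 0.08. In 456wt 28 rows were higher (22.9% of all genes) and 2 lower (13.6%), with medians of 0.11 and 0.05, and in 343wt 5 were higher (14.5%) and 14 lower (25.6%), with medians of -0.02 and -0.10. The 14 rows lower in 343wt were 9 without its replicate 1 or 2, the 5 lower in 444wt were 3 without 186wt replicate 2 or 444wt replicate 1, and the 2 higher in 186wt were 1 without its replicate 1. The 4 comparisons use the same 12 libraries.

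The direction in 343wt and 456wt depended on the scaling. Centring each library on its median moved the median of all genes by 0.14 in 343wt and -0.14 in 456wt. After it 343wt had 30 rows higher and 1 lower, and 456wt had 2 higher and 13 lower. The low 186wt values (27 rows lower, 2 higher) and the high 444wt values (20 higher, 6 lower) kept their direction.

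The 3 smallest p-values belonged to Psmd2, Psma4 and Psmd7. Psmd2 was at 188 FPKM in 186wt, 200 in 343wt, 238 in 444wt and 232 in 456wt (limma adjusted p = 2.07e-09). Psma4, an alpha ring subunit, was at 111, 124, 141 and 135 FPKM (limma adjusted p = 8.84e-08). In both, 186wt was lowest and 444wt highest, and 186wt fell by 0.24 (SE 0.01) and by 0.26 (SE 0.01) against the other samples. The largest ranges on the log2 scale were 1.88 and 1.05 for the Psmb9 rows, which did not pass, and 1.75 for Psmb8.

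Psmd7 and Psma7 ran against most of the complex. Psmd7, the lid partner of the deubiquitinase Psmd14 (ENSMUSG00000039067, chr8:110104281-110112382), was at 105 FPKM in 186wt, 118 in 343wt, 83.7 in 444wt and 83.7 in 456wt (limma adjusted p = 1.34e-07). Its libraries ran from 103 to 107 FPKM in 186wt and from 114 to 120 in 343wt, and from 81.3 to 87.0 in the other samples, without overlap. Psma7 had the same split, with 173 to 177 FPKM in 186wt, 189 to 191 in 343wt, and 150 to 163 in the libraries of 444wt and 456wt (limma adjusted p = 3.35e-07). These were the only 2 rows called higher in 186wt and the only 2 called lower in 456wt as deposited. Neither gene's transcript shared a 100-base stretch with another gene of the table.

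Taken relative to the mean log2 level of the 31 constitutive 26S genes in the same library, Psmd7 was 0.29 above it in 186wt and 0.33 above in 343wt, and at -0.20 and -0.21 in 444wt and 456wt. Psma7 was 1.02, 1.03, 0.67 and 0.73 above it. Smaller splits in the same direction occurred in other genes. Among them were Psmc6 (-0.94, -0.99, -1.07 and -1.11) and Psmd12 (-0.44, -0.45, -0.56 and -0.60). As deposited, 28 of the 31 genes were lowest in 186wt, and the exceptions were Psma7, Psmd7 and Psma3, which shares sequence with Gm13835. The Sertoli cell markers (7 genes in the table) summed to 3966, 4097, 2285 and 2454 FPKM, also high in 186wt and 343wt. In each of these samples 7 of 7 were called higher, and in each of the others 7 of 7 were called lower. Of all genes tested, 14.8% were called higher in 186wt and 14.5% in 343wt, and 17.8% lower in 444wt and 13.6% in 456wt. The part of the Sertoli markers in the Psmd7 and Psma7 values was not tested. The spermatogonia markers summed to 622, 654, 886 and 772 FPKM and those of peritubular myoid cells to 533, 253, 670 and 1112 FPKM.

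**Figure D5:**
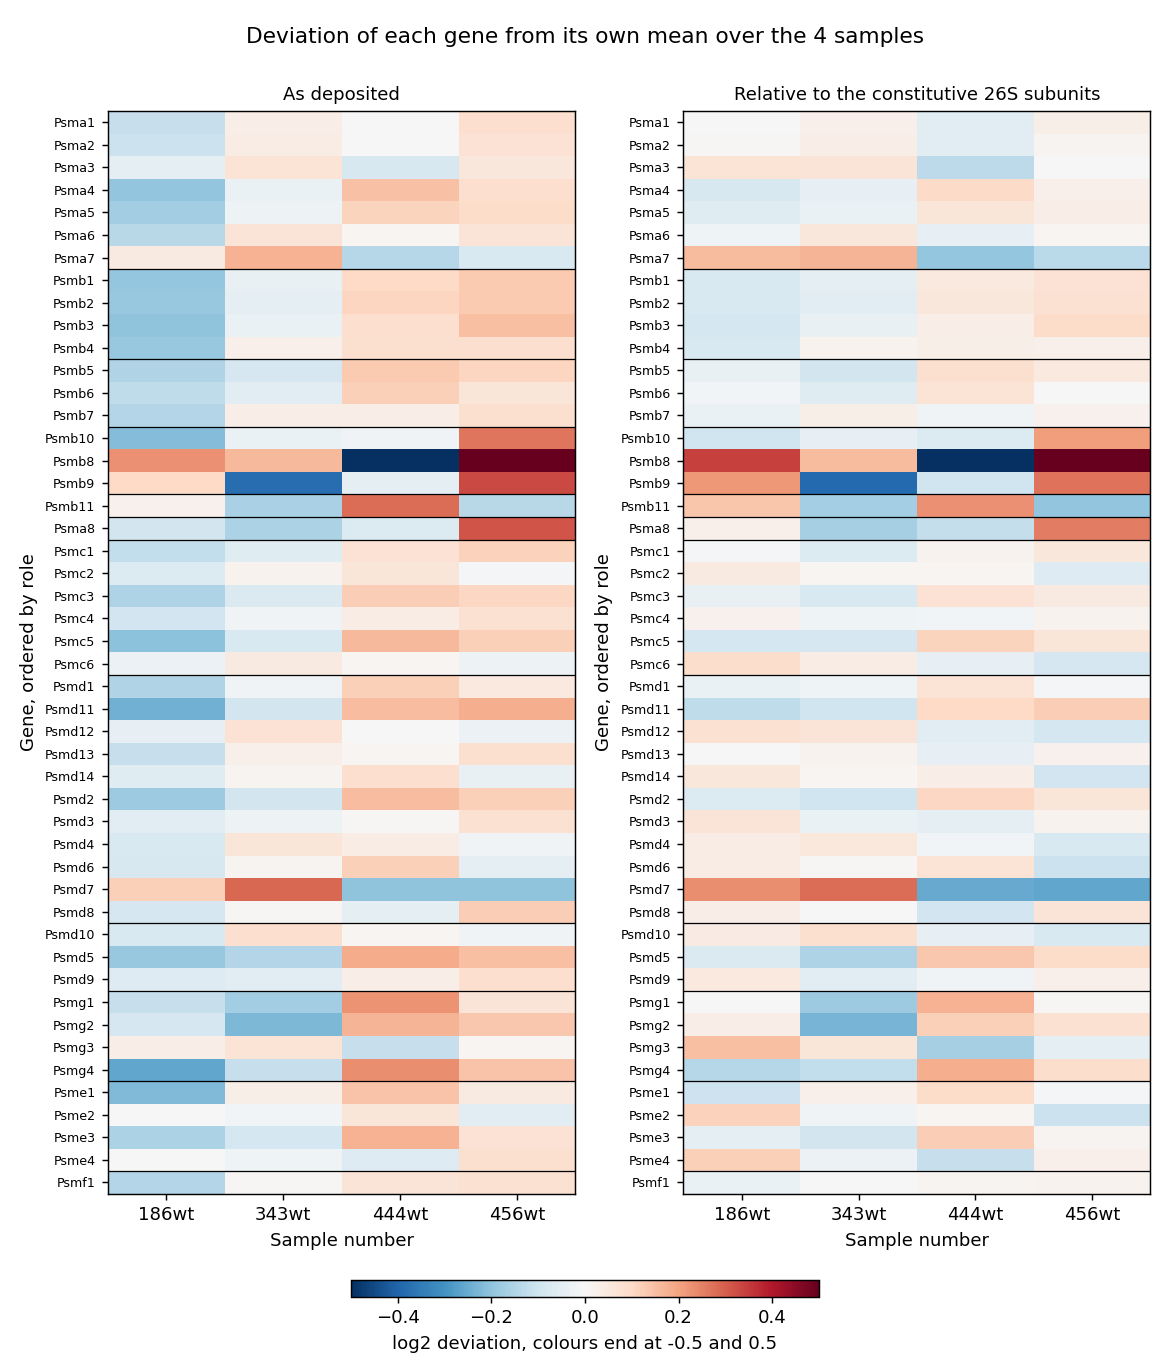
log2 deviation of each gene from its own mean over the 4 sample numbers, as deposited (left) and relative to the 31 constitutive 26S genes of the same library (right), with lines between role classes and colours that end at -0.5 and 0.5. In the left panel 186wt is low for most genes, and in both panels Psmd7 and Psma7 are high in 186wt and 343wt and low in 444wt and 456wt.

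By role and as deposited, all 4 non-catalytic and all 3 catalytic constitutive beta genes were called lower in 186wt. So were 5 of 7 alpha genes, 5 of 6 ATPases and 9 of 11 tested non-ATPases, beside 21.9% of all genes tested. Of the 20S chaperones, Psmg1, Psmg2 and Psmg4 were called higher in 444wt, while Psmg3 was at 9.75 FPKM there and did not pass. In 444wt 26.5% of all genes tested were called higher. Psme3 and Psme1 were called lower in 186wt and higher in 444wt, and Psme2 was called in no comparison of the values as deposited.

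Partners of the proteasome with other symbols gave 22 rows in the table for a list of 24 genes, and 19 of them differed between the samples, where 58.2% of all genes tested did and 77.6% of those above 1 FPKM. The 3 highest were Vcp, the unfoldase that hands substrates over (235 ± 7.74 FPKM), Shfm1, a small cap subunit (140 ± 2.40 FPKM), and Adrm1, a ubiquitin receptor of the cap (120 ± 4.36 FPKM). The 3 lowest were Ngly1 (8.06 ± 0.853 FPKM) and Ddi2 (9.01 ± 0.536 FPKM), which process Nfe2l1, and Uchl5, a deubiquitinase (13.8 ± 1.51 FPKM). In 186wt 11 partners were lower and 5 higher, beside 21.9% and 14.8% of all genes tested. The transcription factors of the antioxidant element, Nfe2l1 and Nfe2l2, were at 103 ± 5.35 and 44.1 ± 4.29 FPKM.

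Genes of antigen processing and the interferon response had 17 rows for 16 genes, of which 16 were tested and 12 differed, where 58.2% of all genes tested did. The highest were Tapbp (106 ± 19.7 FPKM), which loads peptides, and the class I genes H2-K1 (102 ± 20.7 FPKM) and B2m (77.1 ± 16.7 FPKM). The lowest were both rows of Ciita (0.136 ± 0.0453 and 0.0100 ± 0.0128 FPKM) and Nlrc5 (0.453 ± 0.208 FPKM), transactivators of the class II and class I genes. In 444wt 7 rows were lower and 2 higher, beside 17.8% and 26.5% of all genes tested. In 186wt 9 were higher and 2 lower, beside 14.8% and 21.9%. Tap1, beside Psmb9 on the chromosome, was at 2.94, 1.98, 1.75 and 3.09 FPKM.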

How the data were processed

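RNA-seq of enriched germ cells was analysed in 12 libraries, grouped by the sample number in the labels. The authors aligned 100-base paired-end reads to the NCBI build 37 transcriptome with Bowtie 0.12.9, and RSEM 1.2.8 gave the deposited FPKM, rounded to 2 decimals. A strand setting is not given in the sources used here. RSEM divides reads among similar transcripts. The depth was estimated from the step size of low FPKM values of 352 single-transcript genes (13.0 to 18.2 M fragments per library).

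Rows with a mean of at least 0.1 FPKM (20795) were fitted as log2(FPKM + 0.1) with limma 3.58.1 in R 4.3.3 (trended eBayes, F-test and 1 sample against the others, Benjamini-Hochberg over all genes). A fold on this scale understates changes of low genes. On simulated data, 61.0% of 200 genes shifted by 1 (log2) were called and 6.15% of calls were false. That setting shifted 200 of 20795 genes, while 58.2% were called in the data. These rates therefore do not describe the calls reported above. Paralog ratios used means of 3 libraries, the Psmb9 rows summed, and exact tests. The test of a ratio between samples used the log2 ratio of each library. Transcripts were searched in GENCODE models for shared 100-base stretches with at most 1 mismatch.

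Members and lists were chosen with earlier results of these data known. Named were the variant subunits and paralogs, the highest and lowest gene of each role, the 3 smallest p-values, the 3 largest ranges, and the 3 highest and lowest of each pathway list; other genes were named after their values were seen. Alternatives were other pseudocounts, filters and scalings, a block for the library number, and each library or sample left out. Summed rows for a shared symbol and the first Psmb9 row alone were chosen after seeing the data. Some genes of the pathway lists are not reported here.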

Additional observations from a re-analysis of the deposited data

Results flagged for a closer look

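The log2 ratio of Psmb10 to Psmb7 was highest in 456wt, at -3.45 against -3.71 to -3.68 in the other 3 samples, a gap of 0.897 of the whole range. It was the only one of 76 sets of 4 sample values (genes, ratios, class medians and marker sums) with a gap over the limit of Dixon's test, where chance gives about 1 in 20, or 3.8 sets. The ratio did not pass the test between samples (exact permutation test, adjusted p = 0.133).

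Psmb7-ps2, a pseudogene row that was left out by its symbol, was listed at 0.386 FPKM on average (0.340, 0.213, 0.700 and 0.290 FPKM in 186wt, 343wt, 444wt and 456wt). It was above the level of 3 fragments, taken on its full transcript, in 9 of 12 libraries. The other 3 such rows, Psme2b-ps, Psmb6-ps and Psmb5-ps, averaged 0.0867, 0.0683 and 0.0133 FPKM.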

How the results depend on the processing

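Across other pseudocounts, filters, a common library total and each library left out, the count of rows that differed between samples and the total counts of each sample against the others stayed within 1.5 times. Counts in 1 direction moved more: rows lower in 343wt fell from 14 to 9 without 343wt replicate 1 or 2, rows lower in 444wt from 5 to 3 without 186wt replicate 2 or 444wt replicate 1, and rows higher in 186wt from 2 to 1 without 186wt replicate 1. Centred on library medians, 343wt had 31 rows called (30 higher, 1 lower, from 5 and 14) and 456wt had 15 (2 higher, 13 lower, from 28 and 2). Without 1 library the count between samples ran from 37 to 41, and without 1 sample from 31 to 38. With the library number as a replicate block the counts were 39 between samples and 35, 18, 28 and 30 for 186wt, 343wt, 444wt and 456wt. Across samples, deviations of same-numbered libraries correlated at -0.065 to 0.128 (median -0.007). Those of differently numbered libraries correlated at -0.128 to 0.0835 (median 0.0004). The labels do not say what the library number stands for.

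A pseudocount of 1 gave mean log2 ratios of -5.65 for Psmb9 to Psmb6 and -6.52 for Psmb11 to Psmb5, and no pseudocount gave -9.20 for the latter. At a pseudocount of 1 the Psmb11 ratio passed the test between samples (range 0.30, exact adjusted p = 0.0194). The first Psmb9 row alone gave a mean ratio of -6.62 and a range of 1.77 that did not pass (exact adjusted p = 0.253). With 1 sample left out, the Psmb9 range ran from 0.44 to 0.60. Ranges in this paragraph lie between sample means of the log2 ratio of each library. The sample values given earlier are instead log2 ratios of mean FPKM. Their range was 0.58 for Psmb9 to Psmb6 and 1.73 for Psmb8 to Psmb5. The range of Psmb8 to Psmb5 was 0.32 without 444wt (exact adjusted p = 0.0417) and up to 1.77 without another sample. The mean in place of the median gave 93.7 FPKM for the alpha class, 5.36 for the immune class, 89.7 for the non-ATPases and 23.5 for the 19S chaperones. Whether samples differ by animal, dissection or library cannot be told apart, and with 4 samples no sign-flip test can pass.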

Other observations

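Ubiquitin itself was among the abundant transcripts. Ubb, a polyubiquitin gene, averaged 1098 ± 77.0 FPKM, and Rps27a, which encodes ubiquitin fused to a ribosomal protein, 364 ± 44.0 FPKM (SD, n = 4). Rps27a was at 308 FPKM in 186wt, 356 in 343wt, 412 in 444wt and 381 in 456wt, so it was lowest in 186wt. Ubb was instead highest in 343wt and lowest in 444wt, at 1115, 1192, 1006 and 1081 FPKM. Of the activating enzymes that begin the conjugation cascade, Uba1 averaged 127 ± 10.6 FPKM and Uba6 37.0 ± 3.72 FPKM, while Ube1y1, the Y-linked copy, was at 0.210 ± 0.00471 FPKM.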
